A study of Xenopus laevis with 13 samples.

Results

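The chaperonin containing TCP1, or CCT (also called TRiC), is the ring-shaped folding machine of the eukaryotic cytosol, and its 8 subunits were followed here at the transcript level in *Xenopus laevis* embryos and eggs. Members were chosen by name: every gene model that the authors' annotation called *tcp1*, *cct2*, *cct3*, *cct4*, *cct5*, *cct6a*, *cct7* or *cct8*. This gave 16 gene models of 54110 in the table (0.0296%), 2 for each subunit, and all 16 passed the filter of a mean of at least 1 FPKM. RNA came from 5 single gastrula embryos (NF stage 10.5, whole embryo), from 3 further libraries that the labels call technical replicates of stage 10.5 embryos, and from 5 single fertilized eggs (NF stage 1, whole egg, taken 60 min after fertilization and before cleavage). Neither the labels nor the methods used here name a strain or a genetic change. The growth protocol, which the stages share, removed the jelly coat with cysteine. The mother was injected with human chorionic gonadotropin to induce laying, and the eggs were fertilized *in vitro*. The methods name a single female, so the spread between libraries does not cover differences between mothers. Embryo libraries were prepared with another kit than egg libraries, and all samples of a stage were processed together, so stage and library preparation cannot be told apart in any comparison of embryos with eggs. The labels do not give the embryo or embryos behind the technical libraries.

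CCT closes around newly made proteins and folds them in cycles of ATP binding and hydrolysis, and actin and tubulin are its best known clients. Each of its stacked rings holds 1 copy of each of the 8 subunits, which are products of separate but related genes. The co-chaperone prefoldin delivers unfolded actin and tubulin to CCT, and phosducin-like proteins modulate its activity. A fertilized frog egg runs on maternal RNA and protein, and transcription of the embryo's own genes starts at the midblastula transition, before gastrulation. *X. laevis* is allotetraploid, so most genes exist as a pair of similar copies on the L and S subgenomes. The questions here were how the level of each subunit differed between gastrula embryos and eggs, whether the 8 subunits kept their proportions in each single embryo and egg, and which of the copies supplied the transcript.

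Levels are FPKM, a read density: fragments on a transcript divided by its length and by the size of the library. They are relative amounts within a library: neither the RNA content of an embryo or egg nor the number of cells that express a gene enters them, and more expressing cells and more RNA per cell cannot be told apart. Depth was estimated from the steps of low FPKM values, as 1366140 to 3816175 reads on gene models in single embryos, 725643 to 1174985 in technical libraries and 1505073 to 2921565 in single eggs. The 16 CCT gene models took 2993 to 10301 of these reads in single embryos, 1136 to 2219 in technical libraries and 3260 to 5724 in single eggs. Outside *cct3*, every gene model had at least 64 reads in each embryo and at least 119 in each egg, whereas *cct3* copy A rested on as few as 3 reads (egg 3). The 5 most abundant gene models took 13.3, 25.3, 21.8, 21.5 and 11.97% of the reads in embryos 1 to 5 and 2.62, 1.52, 2.81, 1.91 and 34.8% in eggs 1 to 5, so that egg 5 stood apart from the other eggs. The stage labels were borne out by early zygotic genes, of which 37 of 38 tested gene models were higher in embryos (limma on log2(FPKM + 1), adjusted p under 0.05), with a median log2 change of 6.13. The maternal genes of the egg check list had 13 of 27 tested gene models lower and 1 higher in embryos, with a median log2 change of -0.74. Over all gene models tested, 25.2% were lower and 31.6% higher in embryos. Summed markers of blood reached 24.4 to 45.8 FPKM in embryos and 109 to 156 FPKM in eggs, with 2 of 20 gene models tested and both lower in embryos. The most abundant was the model named *hba1:mgc82602*, and *hbd* was listed at 0 in embryos. The names *hba2*, *hbg1* and *hbg2* were listed at 0 in all 10 single libraries. Summed markers of follicle cells reached 18.7 to 31.1 FPKM in embryos and 67.6 to 120.8 FPKM in eggs, where 1 of 5 tested, *cyp17a1*, was lower in embryos (14.1 ± 2.95 FPKM in embryos and 84.3 ± 19.1 FPKM in eggs, SD, n = 5 each). In the follicle list *cyp19a1*, *fshr* and *inha* were listed at 0 in all 10 single libraries, and *foxl2* was not found. The egg sum of this list thus rested mostly on *cyp17a1*, and it does not show whether RNA of follicle cells was present. Of the sperm and testis markers 1 gene model was tested, *odf2*, which was higher in embryos (19.95 ± 3.70 FPKM in embryos and 5.02 ± 5.30 FPKM in eggs, SD, n = 5 each). Of the 9 names on that list 2 were found, and the other of these, *spam1*, was listed at 0 in all 10 single libraries. The list therefore does not show whether RNA of sperm or testis was present. The part of these cell types in the CCT values was not tested.

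The 16 gene models lie on 15 scaffolds of version 7.1 of the JGI assembly, with the copies of each subunit other than *cct3* on separate scaffolds. *tcp1* copy A, where A is the copy with the higher mean FPKM over the 10 single libraries, lies on the minus strand of scaffold 000045784 from 3052759 to 3070710, and copy B on the plus strand of scaffold 000009528 from 708640 to 723214, each with 12 exons. *cct6a* copy A lies on the minus strand of scaffold 000075833 from 669354 to 688370 and copy B on the minus strand of scaffold 000084303 from 133183 to 149396, each with 14 exons. *cct4* copy A lies on the minus strand of scaffold 000012020 from 5654760 to 5666124 and copy B on the minus strand of scaffold 000111824 from 1057366 to 1070006, also with 14 exons each. Both *cct4* models carry the same gene identifier, which RefSeq gives to *cct4.S*, so their names do not assign them to L and S. *cct2* copy A, whose file name also carries *hspa1l*, lies on scaffold 000237412 from 1204430 to 1215047 and copy B on scaffold 000052352 from 1641049 to 1664144, both on the minus strand with 16 exons. *cct5* copy A (named *cct5b:cct5*) is on the plus strand of scaffold 000047591 from 29713 to 68018, and copy B is on the minus strand of scaffold 000103160 from 216587 to 253082, with 11 exons each. *cct7* copy A (RefSeq *cct7.L*) lies on scaffold 000027038 from 332307 to 348524 and copy B on scaffold 000189728 from 366544 to 377173, both on the minus strand with 12 exons. *cct8* copy A is on the plus strand of scaffold 000006590 from 7537785 to 7564913 and copy B (RefSeq *cct8.S*) on the minus strand of scaffold 000006754 from 2018154 to 2032850, with 15 exons each. In every pair except *cct3*, the copies had the same number of coding exons, and between 10 and 14 of these were equal in length.

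The modelled transcripts differ in how much untranslated sequence they hold, which enters every comparison of levels between subunits. The *cct2* copy A model is 1608 bases long and all of it is coding, whereas the *cct7* copy B model is 5197 bases long with 1701 coding bases. Exons of 4 members overlap a gene model on the opposite strand. The partners of *cct2* copy B (unnamed, 2.57 FPKM in embryos and 3.61 FPKM in eggs), *cct5* copy B (*fam173b*, 8.55 FPKM in embryos and 5.61 FPKM in eggs) and *cct7* copy A (*pradc1*, 7.60 FPKM in embryos and 11.2 FPKM in eggs) were each lower than the member they overlap. The libraries were strand-specific, but whether counting used strand is not given in the sources used here, and short reads can also be divided unevenly between near-identical copies, so the values of single copies are less certain than the sum of a pair.

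*cct3*, the gamma subunit, had a gene structure unlike the other pairs. Its gene models share scaffold 000172102, in opposite orientation and 149532 bases apart: copy A on the plus strand from 222860 to 232344 and copy B on the minus strand from 62518 to 73327. Copy B has 14 coding exons and 1581 coding bases, and copy A has 10 coding exons and 918 coding bases. The first 6 coding exons are equal in length in both models, at 46, 62, 51, 63, 97 and 118 bases, and the seventh differ in length. RefSeq annotation of *X. laevis* v10.1 names 2 genes for 7 of the 8 subunits and 1 for *cct3* (*cct3.S*). Exons of copy B overlap an unnamed gene model on the other strand by 170 bases (4.02 FPKM in embryos and 0.707 in eggs).

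**Figure D1:**
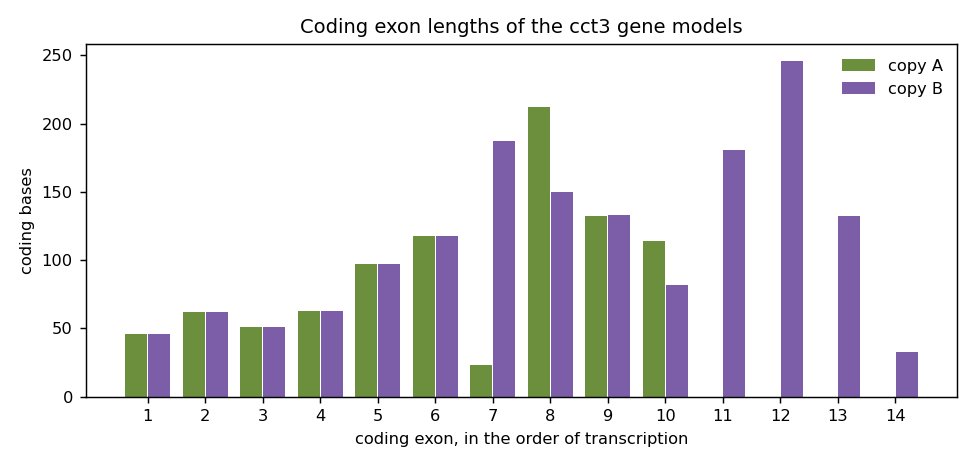
Length in coding bases of each coding exon of the *cct3* gene models, in the order of transcription, with copy A beside copy B. The bars of the first 6 exons are of equal height, and copy A ends at exon 10 where copy B goes on to exon 14.

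Of the 16 gene models, 6 were higher in embryos than in eggs and 0 were lower (limma on log2(FPKM + 1), Benjamini-Hochberg over 19373 gene models, adjusted p under 0.05). Among all gene models tested, 56.8% were called, 31.6% higher and 25.2% lower in embryos, so the share of CCT gene models called higher was near the background. At an unadjusted p under 0.05 the counts were 7 higher and 0 lower. The 6 belonged to 4 subunits: both copies of *tcp1*, both copies of *cct6a*, and copy A of *cct4* and of *cct8*. The median log2 change of the members was 0.34, beside 0.12 over all gene models tested. For 4 of the 16 (copy A of *tcp1*, both copies of *cct6a* and copy A of *cct8*) every embryo was above every egg, and for none was every embryo below every egg. Over all gene models tested, 41.8% did not overlap between stages, 23.5% with embryos above and 18.3% with embryos below. Of the 8 sums of copies described next, those of *tcp1* and *cct6a* did not overlap, beside 46.7% of gene names, 25.2% with embryos above and 21.5% with embryos below.

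*tcp1*, the alpha subunit and the gene after which the complex is named, changed the most. Copy A had 109, 115, 96.0, 139.6 and 144 FPKM in embryos 1 to 5, against 46.9, 42.0, 31.5, 38.6 and 40.5 FPKM in eggs 1 to 5. The lowest embryo, at 96.0 FPKM, was above the highest egg, at 46.9 FPKM. The log2 change was 1.57 (SE 0.163, limma adjusted p = 1.12e-05). Copy B had 99.3, 84.5, 67.2, 103 and 96.8 FPKM in embryos and 69.1, 53.8, 48.7, 57.6 and 57.0 FPKM in eggs, a log2 change of 0.64 (SE 0.159, limma adjusted p = 0.00511). Here embryo 3 lay close under egg 1, at 67.2 and 69.1 FPKM, and all other embryos were above every egg. Summed over both copies, *tcp1* reached 211 ± 32.9 FPKM in embryos, 192 ± 33.3 FPKM in technical libraries (SD, n = 3) and 97.2 ± 12.7 FPKM in eggs (SD, n = 5 each for embryos and eggs), and the sum rose by 1.11 on the log2 scale (SE 0.152, limma adjusted p = 4.21e-05).

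*cct6a*, the zeta subunit, which in budding yeast is among the subunits with low affinity for ATP, was the other subunit with both copies higher. Copy A had 133, 119, 98.2, 146 and 163 FPKM in embryos 1 to 5, against 40.6, 47.3, 58.0, 54.5 and 68.6 FPKM in eggs 1 to 5, without overlap. Its log2 change was 1.28 (SE 0.185, limma adjusted p = 0.00013). Copy B had 92.5, 92.9, 89.6, 97.5 and 103 FPKM in embryos and 66.0, 72.4, 62.2, 63.4 and 74.4 FPKM in eggs, also without overlap and with less spread than copy A. Its log2 change was 0.49 (SE 0.121, limma adjusted p = 0.00501), a call lost with technical libraries in place of single embryos (log2 change 0.29, limma adjusted p = 0.0623). The sum reached 227 ± 30.1 FPKM in embryos, 212 ± 13.6 FPKM in technical libraries (SD, n = 3) and 121 ± 13.3 FPKM in eggs (SD, n = 5 each for embryos and eggs), a log2 change of 0.89 (SE 0.140, limma adjusted p = 0.000118).

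*cct8*, the theta subunit, stood at the edge of the threshold. Copy A had 106, 89.6, 112, 88.1 and 101 FPKM in embryos 1 to 5 and 85.8, 82.8, 66.8, 70.4 and 76.6 FPKM in eggs 1 to 5, so that every embryo was above every egg, the nearest being 88.1 FPKM in embryo 4 and 85.8 FPKM in egg 1. The log2 change was 0.38 (SE 0.135, limma adjusted p = 0.033), a call kept in 10 of 18 alternative fits and lost, among others, without egg 3, 4 or 5 or embryo 1 or 3. Copy B was lower in level and overlapped between stages, at 27.7 ± 7.52 FPKM in embryos and 23.9 ± 3.06 FPKM in eggs (SD, n = 5 each). The sum of copies changed by 0.33 on the log2 scale (SE 0.134, limma adjusted p = 0.0462), with 107 to 151 FPKM in embryos and 95.3 to 109 FPKM in eggs. This call of the sum was lost in 11 of 19 alternative fits, among them each fit without egg 2, 3, 4 or 5 or without embryo 1, 3 or 5, with an adjusted p of up to 0.913 when technical libraries took the place of single embryos.

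The subunits *cct2*, *cct3*, *cct4*, *cct5* and *cct7* did not pass the test as sums. With the sum as the unit, 3 of 8 subunits were called, all higher, beside 62.6% of 12083 gene names called in either direction and 33.5% called higher. *cct2*, the beta subunit, had a log2 change of 0.16 with a 95% interval of -0.12 to 0.44, from 175 ± 11.3 FPKM in embryos and 158 ± 18.7 FPKM in eggs. *cct4*, the delta subunit, had a log2 change of 0.11 with an interval of -0.25 to 0.47, from 88.0 ± 9.94 FPKM in embryos and 82.2 ± 15.3 FPKM in eggs. *cct5*, the epsilon subunit, had a log2 change of 0.29 with an interval of -0.10 to 0.69, from 79.7 ± 21.7 FPKM in embryos and 63.6 ± 7.61 FPKM in eggs. *cct7*, the eta subunit, was the one sum with a negative log2 change, -0.27 with an interval of -0.82 to 0.28, from 67.6 ± 26.0 FPKM in embryos and 77.0 ± 9.81 FPKM in eggs (SD, n = 5 each throughout). Leaving out 1 library at a time, the log2 change of the *cct7* sum ran from -0.45 (without embryo 3) to -0.024 (without embryo 5).

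*cct3* had the lowest level and the widest interval. Its sum was 23.3, 21.8, 26.6, 29.0 and 11.7 FPKM in embryos 1 to 5 and 25.2, 24.2, 13.1, 21.7 and 13.8 FPKM in eggs 1 to 5, which overlapped over most of their range. The log2 change was 0.18 with a 95% interval of -0.39 to 0.75. The *cct3* sum rested on 54 to 183 reads in embryos and 76 to 114 reads in eggs. Counting alone gives these read numbers a CV of 7.39 to 13.6% in embryos and 9.37 to 11.5% in eggs. In FPKM a read on copy A (1204 bases) weighs more than one on copy B (2965 bases). The counting CV of the FPKM sum is therefore larger, and it was not computed. The CV of the sum between libraries was 29.6% in embryos and 29.2% in eggs, above the counting CV of the read numbers. These values could not show a difference between stages that lies inside that interval.

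**Figure D2:**
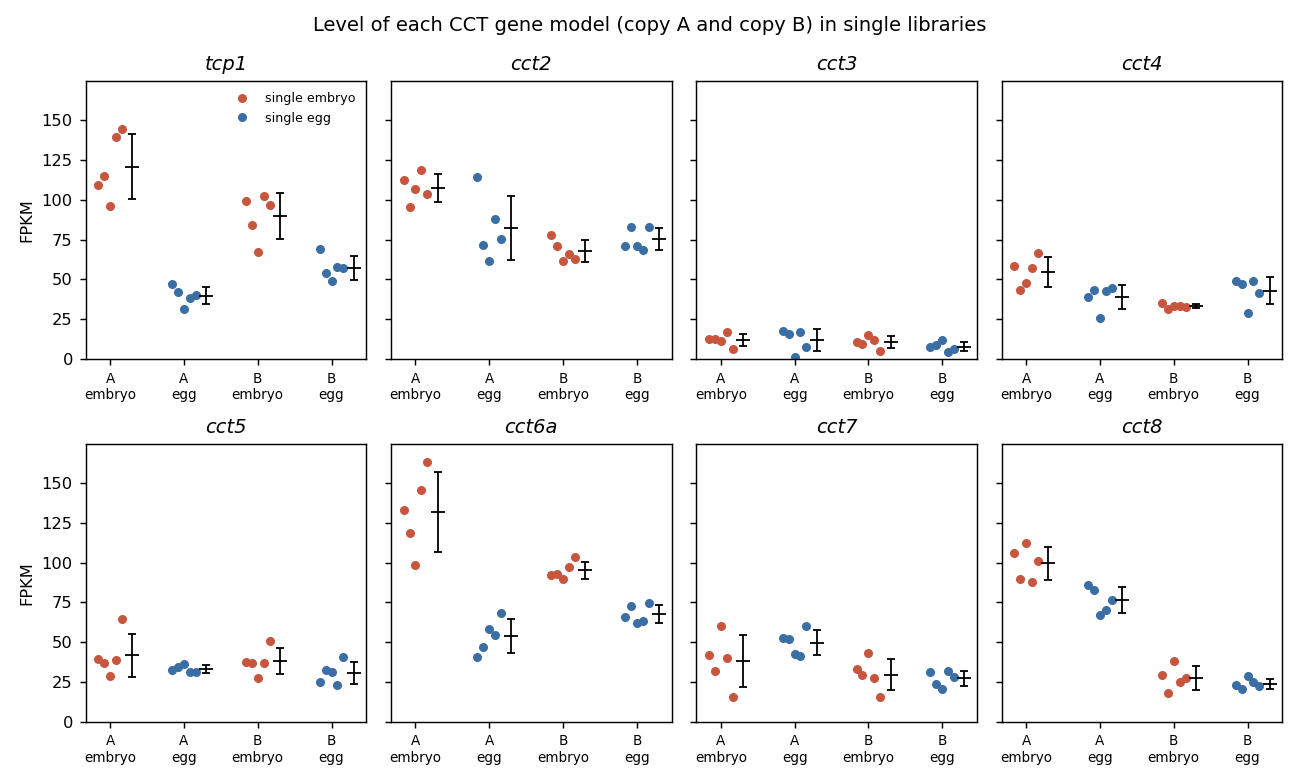
FPKM of copy A and copy B of each CCT subunit in 5 single embryos and, to their right, 5 single eggs, with points for libraries 1 to 5 from left to right and black bars for the mean and SD. Both copies of *tcp1* and *cct6a* are raised in embryos, copy A the more, and both *cct3* copies stay under 20 FPKM.

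**Figure D3:**
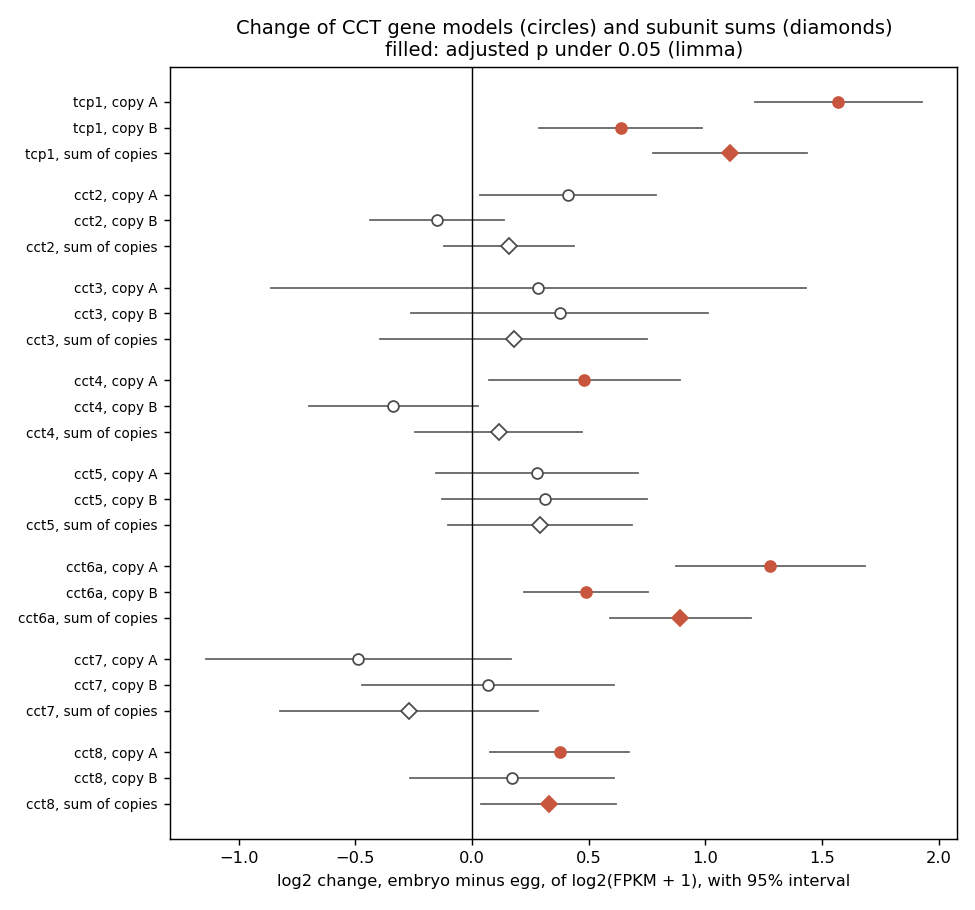
Log2 change (embryo minus egg) of each gene model (circles) and of the sum of both copies (diamonds) with its 95% interval from limma, filled where the adjusted p was under 0.05. The changes run from -0.49 for *cct7* copy A to 1.57 for *tcp1* copy A, and each filled symbol lies on the positive side.

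In some pairs the copies did not change alike. The ratio of copy A to copy B was tested between stages in 3712 pairs of same-named gene models, of which 36.1% were called, and 5 of the 8 CCT pairs were among the called. The ratio was higher in embryos for *tcp1* (log2 change 0.93, SE 0.140, limma adjusted p = 0.000355), *cct4* (0.82, SE 0.168, limma adjusted p = 0.00284) and *cct6a* (0.79, SE 0.174, limma adjusted p = 0.00412). These 3 held in all 14 alternative fits. Copy A is named by its mean over the same 10 libraries, so the direction of a change is not independent of the label. The calls do not depend on which copy is named A. *cct2* (log2 change 0.56, limma adjusted p = 0.0443) and *cct7* (log2 change -0.56, limma adjusted p = 0.0478) were called close to the threshold, and they were called in 5 and 3 of the 14 alternatives. *cct2* was lost without egg 2, 3 or 5 or embryo 1, 3, 4 or 5, with adjusted p from 0.0653 to 0.0982 in those fits, and *cct7* was lost without any single library other than egg 4. The ratio did not pass the test for *cct3*, *cct5* or *cct8*, with 95% intervals of -1.47 to 1.28, -0.44 to 0.38 and -0.23 to 0.64 on the log2 scale.

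In *tcp1*, *cct6a* and *cct4* the copy with the higher FPKM was not the same in embryos and in most eggs. Which copy leads depends on the modelled lengths. By read number, *cct4* copy B (4476 bases) was above copy A (2238 bases) in every library, as in embryo 1 (654 and 518 reads). *tcp1* copy A (3387 bases) had 377 reads in egg 1 and copy B (2354 bases) had 375, while in egg 3 they had 225 and 235. *cct6a* copy A (2411 bases) had 287 reads in egg 3 and copy B (1916 bases) had 239, while in egg 1 they had 226 and 285. By read number the leading copy of *tcp1* and of *cct6a* thus differed between eggs. These lengths are the same in both stages. *tcp1* copy A made up 52.4, 57.7, 58.8, 57.6 and 59.9% of the sum of both copies in embryos 1 to 5, 55.3, 60.8 and 54.0% in the technical libraries, and 40.4, 43.8, 39.3, 40.1 and 41.6% in eggs 1 to 5. Copy A was thus above copy B in 5 of 5 embryos and in 0 of 5 eggs. *cct6a* copy A made up 59.0, 56.1, 52.3, 59.9 and 61.2% in embryos, 61.9, 63.0 and 57.5% in the technical libraries, and 38.1, 39.5, 48.2, 46.2 and 48.0% in eggs, again above copy B in 5 of 5 embryos and in 0 of 5 eggs. *cct4* copy A made up 62.4, 57.8, 58.8, 63.3 and 66.9% in embryos, 62.4, 64.0 and 61.5% in the technical libraries, and 44.2, 48.0, 47.3, 46.4 and 52.1% in eggs, above copy B in 5 of 5 embryos and in 1 of 5 eggs. The shares of these 3 subunits did not overlap between embryos and eggs. How many of the 3712 same-named pairs separate in this way was not computed, and 36.1% of them were called in the ratio test.

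The *cct4* pair differs from *tcp1* and *cct6a* in that the copies had log2 changes of opposite sign and the sum did not pass the test. Copy A had 58.6, 43.3, 47.6, 57.5 and 66.6 FPKM in embryos 1 to 5 and 38.8, 43.3, 26.1, 42.5 and 44.9 FPKM in eggs 1 to 5 (log2 change 0.48, SE 0.187, limma adjusted p = 0.0449). Copy B had 35.3, 31.6, 33.3, 33.4 and 32.9 FPKM in embryos and 49.0, 46.9, 29.0, 49.0 and 41.3 FPKM in eggs (log2 change -0.34, SE 0.165, limma adjusted p = 0.102). Egg 3 was the lowest egg in both copies, and without it copy A was no longer called (log2 change 0.35, limma adjusted p = 0.0776), copy B was called lower in embryos (log2 change -0.47, limma adjusted p = 0.00774), and the log2 change of the sum was -0.022. The call of copy A was also lost without egg 1 or 4 or embryo 1, 4 or 5 (limma adjusted p from 0.0552 to 0.0932).

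In the other pairs except *cct2*, copy A had the higher FPKM in most libraries of both stages. *cct8* copy A made up 78.5 ± 3.20% in embryos and 76.0 ± 4.09% in eggs and led in all 13 libraries. *cct5* copies were near equal, with copy A at 51.9 ± 2.42% in embryos and 52.5 ± 5.59% in eggs (SD in percentage points, n = 5 each). *cct7* copy A had 49.9 to 59.7% in embryos and 56.3 to 68.5% in eggs. *cct2* copy A had 57.4 to 64.3% in embryos and 46.4 to 61.6% in eggs, above copy B in 5 of 5 embryos and in 2 of 5 eggs. *cct3* copy A ranged over 42.1 to 58.0% in embryos and 10.2 to 78.4% in eggs, the lowest being egg 3 with its 3 reads.

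**Figure D4:**
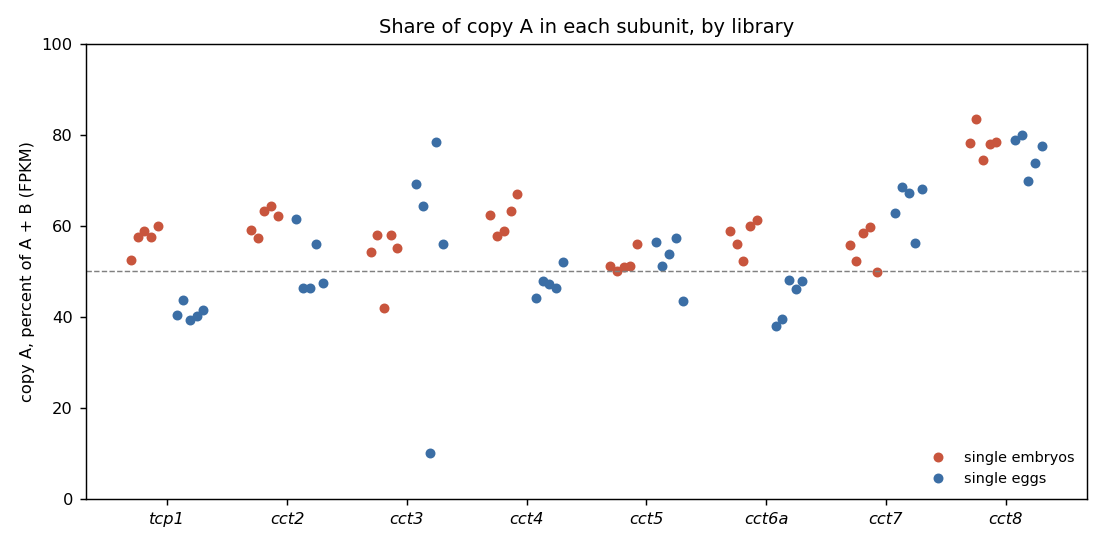
Copy A as a percentage of the summed FPKM of both copies, for each subunit in 5 single embryos and 5 single eggs, with a dashed line at 50%. *tcp1*, *cct4* and *cct6a* lie above the line in all embryos and below it in all eggs except 1 egg of *cct4*, and *cct8* lies far above it in both stages.

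Summed over all 8 subunits, CCT transcript was higher in embryos. The totals were 998.5 ± 66.4 FPKM in embryos, 866 ± 60.4 FPKM in technical libraries (SD, n = 3) and 719 ± 56.7 FPKM in eggs (SD, n = 5 each for embryos and eggs), a ratio of 1.39 of the embryo mean to the egg mean. Embryos ran from 917 to 1061 FPKM and eggs from 628 to 771 FPKM, without overlap. The largest differences of means were in *tcp1* (211 FPKM in embryos and 97.2 FPKM in eggs) and *cct6a* (227 FPKM in embryos and 121 FPKM in eggs). As single sums, 5 of 8 subunits did not pass the test, and *cct7* had a lower mean in embryos. The total had a CV of 6.65% over embryos and 7.88% over eggs. For comparison, prefoldin subunits summed to 264 ± 81.7 FPKM in embryos, 436 ± 64.8 FPKM in technical libraries and 373 ± 76.8 FPKM in eggs. The means of embryos and technical libraries thus lay on opposite sides of the egg mean. Their ranges overlapped, at 179 to 399 FPKM in embryos, 371 to 501 FPKM in technical libraries and 309 to 502 FPKM in eggs. The 14 subunits of the 20S proteasome core summed to 798 ± 47.5 FPKM in embryos, 1109 ± 23.8 FPKM in technical libraries and 1576 ± 278 FPKM in eggs (SD, n = 5 for embryos and eggs and n = 3 for technical libraries). No test is given on these totals, which are scores over chosen genes.

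The subunits did not have equal FPKM in any library. The CV over the 8 subunits was 56.8, 60.9, 50.3, 62.9 and 68.2% in embryos 1 to 5, 65.4, 65.5 and 62.2% in the technical libraries, and 48.7, 42.1, 48.5, 45.9 and 46.5% in eggs 1 to 5. Every embryo was above every egg. The most abundant subunit was 7.08 to 22.9 times the least abundant in embryos and 6.40 to 11.5 times in eggs, with the 22.9 in embryo 5 and no other embryo above 9.69. Much of this ratio came from *cct3*, which was the lowest subunit in all 13 libraries. Its mean was 22.5 FPKM in embryos, where the next lowest subunit, *cct7*, had 67.6 FPKM, and 19.6 FPKM in eggs, where the next lowest, *cct5*, had 63.6 FPKM. Leaving out *cct3*, the CV over the other 7 subunits was 38.3 to 54.8% in embryos and 29.1 to 37.6% in eggs, and the highest-to-lowest ratio averaged 4.39 in embryos and 2.61 in eggs. The embryo mean was drawn up by embryo 5 at 8.53, while the other embryos had 3.01 to 3.61 and eggs had 2.21 to 3.24, so these ranges overlapped. The other complexes had CVs over subunits of 71.1 ± 12.4% in embryos and 69.0 ± 13.4% in eggs (prefoldin, 6 subunits) and of 73.7 ± 5.18% in embryos and 65.3 ± 10.5% in eggs (20S core), SD over n = 5 each.

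The order of the subunits by FPKM differed between stages at the top. In embryos the means, from high to low, ran in the order *cct6a*, *tcp1*, *cct2*, *cct8*, *cct4*, *cct5*, *cct7* and *cct3*, and *cct6a* led in 5 of 5 embryos. In eggs the order was *cct2*, *cct6a*, *cct8*, *tcp1*, *cct4*, *cct7*, *cct5* and *cct3*, and *cct2* led in 5 of 5 eggs. This order depends on the modelled lengths. By read number *cct7* (3927 and 5197 bases) was the highest subunit in each egg. In egg 1 it had 887 reads and *cct2* (1608 and 1814 bases) had 695. In each embryo *tcp1* (3387 and 2354 bases), not *cct6a* (2411 and 1916 bases), had the most reads, as in embryo 1 (2442 and 1966 reads). Among neighbours in the embryo order, the ranges over libraries were apart only between *cct2* and *cct8*, between *cct8* and *cct4*, and between *cct7* and *cct3*. In eggs neighbours were apart only between *cct5* and *cct3*, although *cct2* was above *cct6a* in 5 of 5 eggs. Subunits further apart in the egg order could be separated: *cct2* (133 to 186 FPKM) was above *cct8* (95.3 to 109 FPKM) and *tcp1* (80.3 to 116 FPKM) in range, and *cct6a* and *cct8* were above *cct4*, *cct7* and *cct5*. Embryos 1, 2 and 4 had the same order of all 8 subunits.

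As shares of the CCT total, 3 subunits separated embryos from eggs. *tcp1* made up 21.1 ± 2.33% in embryos and 13.5 ± 0.938% in eggs, and *cct6a* made up 22.7 ± 1.88% in embryos and 17.0 ± 2.16% in eggs. *cct2* made up 17.6 ± 1.10% in embryos and 21.9 ± 1.30% in eggs, although its FPKM overlapped between stages (SD in percentage points, n = 5 each). Shares sum to 100%, so a higher share of some subunits lowers that of the rest. The shares of *cct3*, *cct4*, *cct5*, *cct7* and *cct8* overlapped between stages. How often shares separate in this way in other complexes was not computed.

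Within a stage, proportions were not steadier than levels for every subunit. The CV of the share was below the CV of the FPKM for 5 of 8 subunits in embryos, for 5 of 8 in eggs and for 4 of 8 in the technical libraries. In eggs the share of *cct7* was among the steadiest, at 10.9, 10.4, 10.1, 10.4 and 11.7% in eggs 1 to 5 (CV 5.89%, while its FPKM had a CV of 12.7%). In embryos the same subunit had the least steady share, at 7.28, 6.67, 11.0, 6.44 and 2.95% in embryos 1 to 5 (CV 41.8%), with embryo 3 high and embryo 5 low. The share of *cct4* showed the opposite contrast, with a CV of 5.26% in embryos and 14.0% in eggs, where egg 3 was lowest at 8.78% and the others ran from 11.4 to 13.0%. The 3 technical libraries had a higher share CV than embryos for *cct2* (12.1 and 6.24%), *cct4* (7.53 and 5.26%) and *cct6a* (12.8 and 8.28%). Their share CV was lower than in embryos for the other subunits, with *cct7* at 22.8%. Whether these spreads differ between stages, or exceed technical spread, was not tested.

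**Figure D5:**
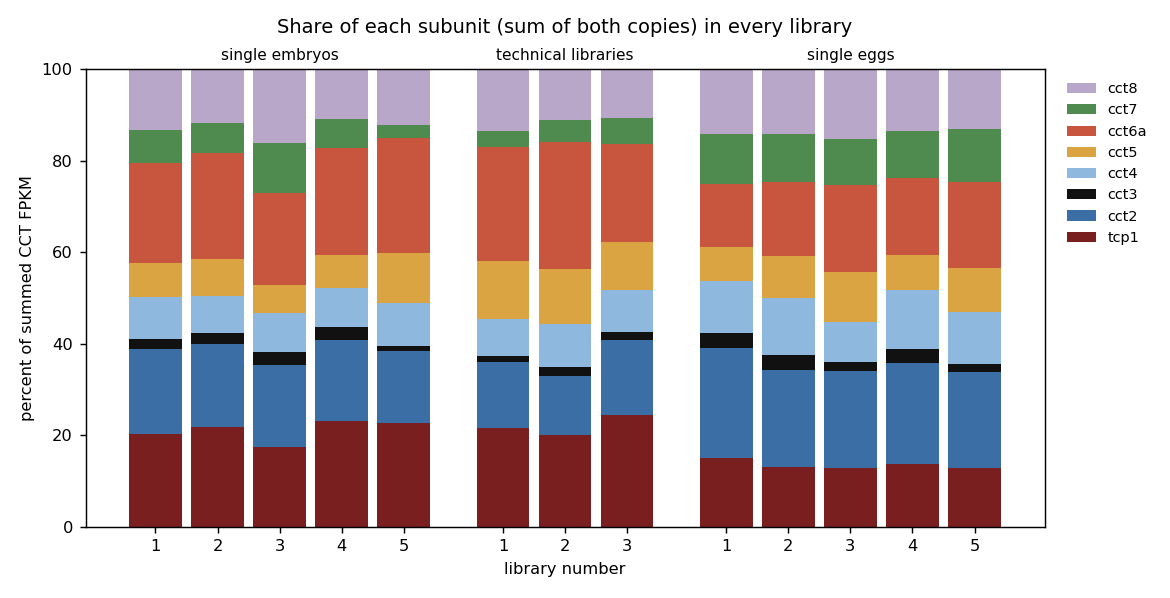
Percentage of the summed CCT FPKM taken by each subunit in 5 single embryos, 3 technical libraries and 5 single eggs. *tcp1* (bottom) and *cct6a* take more of each embryo bar than of the egg bars, *cct3* (black) is the thinnest band in all 13 bars, and *cct7* is thin in embryo 5 and in the technical libraries.

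Embryo 5 had the lowest *cct7* and *cct3* (11.7 FPKM, with 21.8 to 29.0 FPKM in the other embryos) and the highest *cct5* of the embryos, and embryo 3 had the highest *cct7* and the lowest *cct5*. None of these levels met the outlier criterion used here (Dixon's test, 5 samples). *cct7* had 75.0, 61.1, 103, 67.4 and 31.3 FPKM in embryos 1 to 5, 29.3, 39.7 and 51.8 FPKM in the technical libraries, and 83.8, 76.0, 63.2, 73.3 and 88.6 FPKM in eggs 1 to 5. Both of its copies were low in embryo 5, at 15.6 FPKM for copy A and 15.7 FPKM for copy B. The sum rested on 424 reads in embryo 5, more than the 376 reads behind the 61.1 FPKM of embryo 2. *cct5*, by contrast, had 77.5, 74.0, 56.3, 75.6 and 115 FPKM in embryos 1 to 5, 107, 97.5 and 98.5 FPKM in the technical libraries, and 57.3, 67.0, 67.8, 54.0 and 72.0 FPKM in eggs 1 to 5. In log2 shares embryo 5 differed from the mean of the technical libraries by a root mean square of 0.30 over the 8 subunits, and the other embryos differed from it by 0.36 to 0.69. The labels do not say whether the technical libraries share an embryo with any single library, and this was not tested.

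The 3 technical libraries placed the same subunits at the ends of the order, with *cct6a* highest in 2 and *tcp1* in 1, and *cct3* lowest in all. Set against the 5 eggs in place of the single embryos, they kept *tcp1* (log2 change of the sum 0.97, limma adjusted p = 0.000811) and *cct6a* (0.81, limma adjusted p = 0.000911) as called and higher. *cct5* was then also called higher (log2 change 0.66, limma adjusted p = 0.00393) and *cct7* called lower (log2 change -0.95, limma adjusted p = 0.00286), neither of which passed with single embryos. These libraries are not independent animals, so the spread behind these p-values may be technical.

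Partners of CCT were counted over gene models in the same fit. Prefoldin subunits had 1 of 13 tested gene models higher and 5 lower in embryos, with a median log2 change of -0.37. The background for this and the following counts is 31.6% of gene models higher and 25.2% lower, with a median log2 change of 0.12. The named ones were *vbp1* (59.8 ± 19.5 FPKM in embryos and 91.2 ± 14.5 FPKM in eggs, log2 change -0.65), *pfdn2* (14.1 ± 3.18 FPKM in embryos and 27.2 ± 9.14 FPKM in eggs, log2 change -0.86) and both gene models of *pfdn1* (log2 changes -1.45 and -2.74). In the technical libraries *vbp1* had 118, 95.8 and 83.7 FPKM, which overlapped the eggs. There *pfdn2* had 15.3, 14.1 and 15.4 FPKM, and the *pfdn1* gene models had at most 8.62 FPKM. Phosducin-like and thioredoxin-like regulators had 1 of 4 lower and 0 higher. Of these, *pdcl3* (named *pdcl3:tfb1m*) had 17.4 ± 5.23 FPKM in embryos and 19.2 ± 5.96 FPKM in eggs, and the model named *krt5.7:pdcl* had 42.1 ± 14.5 FPKM in embryos and 26.8 ± 8.73 FPKM in eggs, and neither passed the test. The *krt5.7:pdcl* model had 104, 93.6 and 75.6 FPKM in the technical libraries, above every single embryo. Tubulin folding cofactors, which take over tubulin after CCT has folded it, were listed together with the cofactor-like *tbcel*. This list had 1 of 9 higher and 4 lower. *tbcel* was among those lower (6.80 ± 1.34 FPKM in embryos and 15.5 ± 5.09 FPKM in eggs). The cofactor *tbca* did not pass the test (16.5 ± 3.02 FPKM in embryos and 28.1 ± 19.7 FPKM in eggs, SD, n = 5 each for all means of this paragraph).

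Proteins that have been reported to need CCT, other than actin and tubulin, had 6 of 28 tested gene models higher and 10 lower in embryos, beside 31.6% higher and 25.2% lower of all gene models tested. The activators of the anaphase-promoting complex were at both ends. *cdc20*, which acts in mitosis, had 299 ± 74.6 FPKM in embryos and 67.7 ± 23.4 FPKM in eggs (log2 change 2.17), and *fzr1*, also known as Cdh1, had 118 ± 56.6 FPKM in embryos and 988 ± 381 FPKM in eggs (log2 change -3.12). Among G protein beta subunits, which CCT folds together with phosducin-like protein, *gnb5* was higher (17.5 ± 2.01 FPKM in embryos and 4.53 ± 1.92 FPKM in eggs, log2 change 1.81) and *gnb4* lower (7.38 ± 2.08 FPKM in embryos and 44.3 ± 10.1 FPKM in eggs, log2 change -2.44). The 20S proteasome core had 2 of 29 gene models higher and 16 lower, against the same background, with a median log2 change of -0.65. *psmb5* led the falls among those with values in both stages, at 11.9 ± 2.23 FPKM in embryos and 137 ± 39.7 FPKM in eggs for the more abundant gene model, while the gene model named *psmb7:sdsl* was listed at 0 in all 5 embryos and had 54.8 ± 28.2 FPKM in eggs (SD, n = 5 each).

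The mitochondrial chaperonin, the other chaperonin of animal cells, had all 4 tested gene models called, in opposite directions by subunit. *hspd1* (Hsp60, the chamber) was higher in embryos in both gene models, with log2 changes of 1.05 and 1.63, the more abundant one at 30.4 ± 10.4 FPKM in embryos and 13.8 ± 3.09 FPKM in eggs. *hspe1* (Hsp10, its lid) was lower in both, with log2 changes of -2.31 and -2.40, the more abundant one at 50.9 ± 21.1 FPKM in embryos and 251 ± 93.7 FPKM in eggs (SD, n = 5 each). The chaperonin-like Bardet-Biedl syndrome proteins had 0 of 4 tested gene models called, and *mkks* had 15.4 ± 2.12 FPKM in embryos and 14.4 ± 3.16 FPKM in eggs.

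The gene names whose pattern over the 10 single libraries was most like the mean log2 profile of the 8 subunits were *edc3*, *chd8*, *atp2a2*, *znf654* and *fbxl5*, of 6792 names ranked by the root mean square difference of centred log2 values. *edc3* was nearest at 0.077 log2 units, with 132 FPKM in embryos and 109 FPKM in eggs. Of the members themselves, *cct2* was nearest to the same mean profile, at 0.11 log2 units, and *cct7* farthest, at 0.48, after *tcp1* at 0.41.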

How the data were processed

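The authors mapped single-end reads of rRNA-depleted RNA to JGI 7.1 with gmap and deposited FPKM values from Cufflinks 2.1.1 (Cuffdiff layout), a unit the paper calls RPKM, for 54110 pita gene models. The deposited values appear scaled between libraries. A second deposited table holds a merged profile per stage, used here only as an alternative. Depth was recovered from FPKM steps (fragment mean 200, SD 80 bases); 88.5 to 91.8% of values under 20 reads were whole within 0.1. It covers counting error only and entered no fit.

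The limma package (3.58.1, R 4.3.3) was fitted to log2(FPKM + 1) of single embryos against eggs, for gene models, sums by gene name and ratios of same-named copies that averaged 1 FPKM or more in these 10 libraries, with a trend with abundance and Benjamini-Hochberg adjustment over each whole table. Changes are embryo minus egg and understate those of low genes. The code was tested on simulated data. All members are described. Other lists (CCT partners, reported clients, proteasome, and stage, follicle, blood and sperm markers) are given by counts, with up to 4 named gene models: the largest changes called at a mean of at least 10 FPKM, or else the most abundant. Names were matched as the files give them, and RefSeq v10.1 served for copy names only. Members and lists were chosen with earlier results of these data known. Pseudocount, filter, scaling, trend, replicate block, left-out libraries, technical libraries and the highest gene model only were alternatives. 0 columns belonged to unlisted samples. Egg and embryo libraries are separate animals of 1 mother.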

Additional observations from a re-analysis of the deposited data

Results flagged for a closer look

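A single library lay far from the other 4 of its stage in 4 of 86 groups of values examined, where chance alone gives about 4.3 (1 in 20 groups). The share of *cct3* copy A was 42.1% in embryo 3 and 54.2 to 58.0% in the other embryos. The share of *cct5* copy A was 56.1% in embryo 5, while the other embryos had at most 51.2%. The ratio of the highest to the lowest subunit was 22.9 in embryo 5 and 7.08 to 9.69 in the other embryos. The sum of *cct4* was 55.1 FPKM in egg 3 and 86.2 to 91.5 FPKM in the other eggs.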

How the results depend on the processing

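The calls of *tcp1* and *cct6a* as sums of copies held in all 19 alternatives, and their ratios of copies, with that of *cct4*, in all 14. Leaving out 1 library at a time gave 4 to 6 CCT gene models, 2 to 3 subunits and 3 to 5 pairs called. Over those fits the log2 change ran from -0.25 to 0.50 for *cct3* copy A, from -0.079 to 0.27 for *cct7* copy B and from -0.022 to 0.17 for the *cct4* sum, and that of the ratio of copies from -0.78 to 0.25 for *cct3* and from -0.16 to 0.036 for *cct5*, none of which was called in any of them. Technical libraries in place of single embryos gave 3 pairs called and log2 changes of the opposite sign for *cct2* copy A (-0.00024), *cct3* copy A (-0.17), *cct3* copy B (-0.42), *cct7* copy B (-0.60, adjusted p = 0.0299 by limma) and *cct8* copy B (-0.13), for the sums of *cct2* (-0.32), *cct3* (-0.43) and *cct4* (-0.064), and for the ratios of *cct3* (0.25) and *cct5* (0.13). The cause was not tested.

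Samples with the same number were not paired: correlations of their deviations ran from -0.0166 to 0.0742, 0 of 5 over 0.1, and 2 eggs correlated best with the embryo of their own number. With the replicate block, 3 CCT pairs were called instead of 5 and 10661 gene models instead of 11002, with *cct8* lost as copy A and as sum. Quantile normalization moved the median log2 change of all gene models from 0.12 to -0.11 and kept 6 CCT gene models called. Leaving out *cct3*, chosen after seeing the data, brought the mean CV over subunits to 48.1% in embryos and 32.8% in eggs, and the mean highest-to-lowest ratio to 4.39 in embryos and 2.61 in eggs, because the lowest subunit is removed. With the highest gene model only, eggs had a CV of 49.9% and a ratio of 15.4, with *cct3* copy A at 1.34 FPKM in egg 3. In egg 3 the highest copy A was *cct8* at 66.8 FPKM, and this library drew up the egg mean ratio. In embryos 1 to 5 *cct3* copy A had 12.6, 12.7, 11.2, 16.8 and 6.43 FPKM. The highest copy A there had 133, 119, 112, 146 and 163 FPKM (*cct8* in embryo 3, *cct6a* in the others). Only embryo 5 thus had a ratio above the egg mean, and the higher mean ratio of embryos did not hold in this alternative. The embryo CV is not given for it, so the higher CV of embryos is not shown to hold. Of the other results for single members, 473 kept direction and side of the threshold, 49 lost a call and 10 gained one. Depth was lowest for *cct3*, whose copies rested on 3 to 128 reads in single libraries. Counting gave its summed read number, not weighted by length, a CV of at most 13.6%. The FPKM sum had a CV of 29.6% between embryos and 29.2% between eggs.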
